A study of Mus musculus with 12 samples.

Results

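The subject is the interaction between succinate feeding and lipopolysaccharide (LPS): whether the change in each mRNA after LPS differed between monocytes of succinate-treated mice and those of control mice. The contrast, taken from the sample titles, was the LPS log2 change in succinate mice minus the LPS log2 change in control mice, and it used all 12 of the 12 libraries of the series. Cells positive for CD11b with high Ly6C, the surface profile of classical inflammatory monocytes, had been sorted from the bone marrow of mice and put in culture. The 4 groups of 3 libraries were control mice without stimulus, control mice with 4 h of LPS, succinate mice (300 mM for 7 days) without stimulus, and succinate mice with 4 h of LPS. All 4 groups share the sort and the culture, and succinate was given to the animals while LPS was given to the cells. The sources used here give no strain, sex, age or dose of LPS. Whether the libraries within a group stem from different animals is not stated in the labels. The p-values therefore reflect the variation among these libraries alone, and part of it may be technical.

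LPS, a component of the outer membrane of Gram-negative bacteria, is sensed by monocytes through Toll-like receptor 4 (TLR4) with its partners CD14 and MD-2. The receptor signals through the adaptor MyD88 to NF-κB and MAP kinases, which switch on cytokine genes, and through the adaptor TRIF to IRF3 and type I interferon, which in turn switches on interferon-stimulated genes. Succinate is made and oxidised in the tricarboxylic acid (TCA) cycle; inside LPS-treated macrophages its oxidation is tied to HIF-1α and interleukin-1β, and outside cells it acts on the receptor Sucnr1. An interaction asks about the response itself: a gene that succinate shifts by the same factor with and without LPS has an interaction value of 0.

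Total counts ranged from 15975882 to 18306747 per library. The 17 markers of Ly6C-high monocytes were all above the filter, and their summed level was 12067 to 13123 CPM (read counts scaled to a common library size, TMM factors included) in control mice and 8831 to 11211 in succinate mice without LPS, and 10736 to 12124 and 9439 to 11317 with LPS. Markers of neutrophils, which include granule genes also expressed by progenitors, summed to 11249 to 16902 and 9986 to 13208 CPM without LPS and to 17746 to 23471 and 19851 to 22936 with LPS, in the same order. An earlier analysis of these data divided the libraries by the mean log2 CPM of S100a4, Rpl24, Rpl10-ps3, Gm14303 and Rpl35a-ps2. That mean lay between 0.82 and 1.46 in 7 libraries and between 3.19 and 4.03 in the other 5. Replicates 2 and 3 of unstimulated control mice, replicates 2 and 3 of unstimulated succinate mice and the third control LPS library formed the high set, so all 3 succinate LPS libraries were low. In each unstimulated group replicate 1 was the only low library.

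No gene passed the test of the interaction. edgeR's quasi-likelihood test with Benjamini-Hochberg adjustment called 0 of 14324 genes (0.0%) at an adjusted p below 0.05, and the smallest adjusted p was 0.984. At an unadjusted p below 0.05 there were 560 genes, of which 135 (0.942%) had a higher and 425 (2.97%) a lower LPS log2 change in succinate mice. Evenly spread p-values would put 716.2 genes in that range, so genes with a small p were fewer than an even spread gives. limma-voom also called 0 genes and had 136 higher and 381 lower at an unadjusted p below 0.05. DESeq2 called 3 genes, all lower (0.0209%), namely Rps6ka2, Peli1 and the predicted gene Gm10705. Without a filter on low counts, edgeR called 71 of 28563 genes (0.249%), 22 higher and 49 lower, in a fit whose prior degrees of freedom were infinite, so each gene's own spread did not enter.

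**Figure D1:**
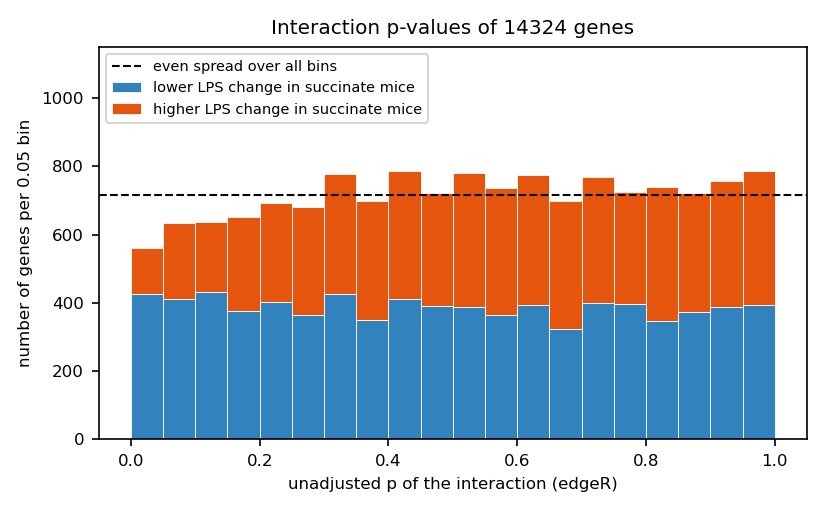
Number of genes per bin of 0.05 in the unadjusted edgeR p of the interaction, stacked by direction (blue, lower LPS log2 change in succinate mice; orange, higher). The first bin holds 425 lower and 135 higher genes, 560 in all, against 716.2 per bin for an even spread (dashed line).

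The lean toward lower values among genes with a small p was absent when the libraries were scaled by size alone. With trimmed means of M values (TMM), 24.1% of the 560 genes were higher. RLE scaling gave 146 higher and 391 lower genes (27.2% higher), and DESeq2 gave 134 and 405 (24.9% higher). Scaled by library size alone, 290 genes were higher and 237 lower, a share of 55.0% higher, and the median interaction over all genes moved from -0.03 to 0.06 (log2). TMM factors were 0.936 to 0.965 in the control LPS libraries and 1.016 to 1.056 in the succinate LPS libraries. Single libraries also moved these counts by more than 1.5 times. Without replicate 3 of unstimulated succinate mice there were 372 higher and 766 lower genes, still with 0 called and a smallest adjusted p of 0.0575. Higher genes numbered 222 without replicate 1 of that group and 208 without replicate 3 of the control LPS group, and lower genes numbered 281 without replicate 1 of the control LPS group.

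The genes with a small p differed between the directions in level and in length, as a description. The 425 lower genes had a median level of 54.0 CPM and a median transcript length of 3905 bases. The 135 higher genes had 2.83 CPM and 2304 bases, and all tested genes 17.7 CPM and 3033 bases. Across 8375 genes with at least 10 CPM, which are not independent, the interaction and transcript length had a Spearman rho of -0.196. After trends with length and GC content were removed per library, rho was -0.057 and the genes with an unadjusted p below 0.05 were 193 higher and 366 lower. The part of length in the result beyond these values was not tested.

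The mean LPS effect over both kinds of mice, which is statistically separate from the interaction in this balanced design, was used to sort the genes. LPS raised 3032 genes (21.2%) and lowered 3284 (22.9%) in that mean at an adjusted p below 0.05 (edgeR). Among the raised genes 1827 (60.3%) had an interaction below 0, with a median of -0.07, and 167 were lower and 25 higher at an unadjusted p below 0.05. Among the lowered genes 1826 (55.6%) were below 0, with a median of -0.04, and 126 were lower and 34 higher at that p. Over all tested genes 54.1% were below 0. With library size alone the medians were 0.02 for raised and 0.05 for lowered genes. For raised genes the median was below 0 in all other alternatives, while that of lowered genes changed sign in further ones. With 1 library left out the medians ran from -0.11 to -0.04 for raised and from -0.06 to 0.01 for lowered genes. For lowered genes the median was also 0.02 after GC and length trends were removed and 0.01 without a filter. A lower interaction means a smaller rise for a gene that LPS raised and a larger fall for a gene that LPS lowered, and both kinds occurred among the 425 genes: 167 raised and 126 lowered ones, with 132 that had no called mean LPS effect. In 350 of these 425 genes (82.4%) the gap between succinate and control mice was larger with LPS than without. The share was 66.7% of the 135 higher genes and 57.4% of all tested genes. Both sets were picked by the interaction p, which compares these same gaps, so shares above 57.4% are partly built in.

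**Figure D2:**
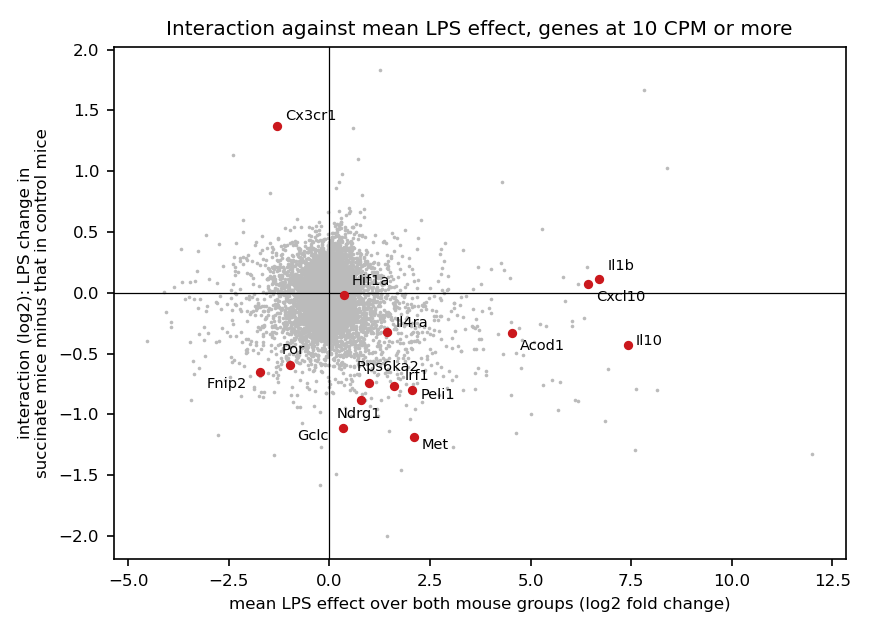
Interaction (y axis, log2) against the mean LPS effect over both kinds of mice (x axis, log2 fold change) for genes with at least 10 CPM; each grey point is a gene and red points are genes described in the text. Cytokine genes strongly raised by LPS, such as Il1b at 0.11 and Il10 at -0.43, lie on both sides of the zero line, and Rps6ka2, Peli1, Met, Por and Fnip2 lie below it.

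Among genes with at least 5 CPM, some classes of name were skipped, such as predicted genes and genes named after clones. The 20 genes with the smallest p among the rest were chosen after their values were seen and are given as a description. The skipped genes include Gm10705, described below, and AC121151.1, with an interaction of 1.35 in the fit without a filter. All 20 had a lower LPS log2 change in succinate mice, and in all 20 the succinate LPS libraries lay apart from the control LPS libraries. The unstimulated groups lay apart in 2 of the 20, and in 1134 of all 14324 tested genes. LPS groups lay apart in 17.1% of all tested genes, 70.1% of the 425 lower genes and 63.0% of the 135 higher genes. The 20, the 425 and the 135 were all picked by the interaction p of these same libraries. Separated LPS groups are therefore partly built into the choice. Of the 20, LPS raised 9, lowered 8 and had no called mean effect on 3.

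Rps6ka2 (ENSMUSG00000023809, chromosome 17, 7170115 to 7303315 in GRCm38) encodes a ribosomal S6 kinase that acts below ERK in the MAP kinase cascade. Its level was 69.8, 64.7 and 70.8 CPM in unstimulated control libraries and 173, 182 and 170 CPM in control LPS libraries. In succinate mice it was 58.0, 71.5 and 67.9 CPM without LPS and 93.5, 107 and 101 CPM with LPS. The unstimulated groups overlapped, and every succinate LPS library was below every control LPS library. The interaction was -0.75 ± 0.15 (log2, SE, n = 3 per group; 95% interval -1.06 to -0.43), with an unadjusted p of 0.000148 and an adjusted p of 0.984 in edgeR. DESeq2 gave an adjusted p of 0.0173. The interaction was below 0 in every alternative fit, from -0.83 to -0.55.

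Peli1 (ENSMUSG00000020134, chromosome 11, 21091291 to 21150323) encodes Pellino-1, an E3 ubiquitin ligase of Toll-like receptor signalling. It stood at 68.8, 69.2 and 67.9 CPM in unstimulated control libraries and at 413, 377 and 339 CPM after LPS. Succinate libraries held 89.2, 78.9 and 69.8 CPM without LPS and 226, 248 and 272 CPM with it. Here too the LPS groups did not overlap, and the succinate libraries without LPS were all slightly above their controls. The interaction was -0.80 ± 0.16 (95% interval -1.15 to -0.45; adjusted p 0.984 in edgeR and 0.0235 in DESeq2) and ranged from -1.04 to -0.71 over the alternatives.

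Dtx2 encodes a Deltex E3 ubiquitin ligase linked to Notch signalling. Control libraries had 36.1, 41.5 and 39.6 CPM at rest and 278, 253 and 263 CPM with LPS, and succinate libraries had 51.7, 49.4 and 34.1 CPM at rest and 144, 167 and 181 CPM with LPS. The resting groups overlapped and the LPS groups did not, and the interaction was -0.90 ± 0.20.

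Met, the receptor for hepatocyte growth factor, was raised by LPS in the mean of both kinds of mice. Its level was 81.0, 70.8 and 63.3 CPM in resting and 539, 453 and 392 CPM in LPS-treated control cells. In cells of succinate mice it was 87.3, 111 and 54.6 CPM at rest and 230, 253 and 233 CPM with LPS. The interaction was -1.18 ± 0.28 (95% interval -1.78 to -0.59; unadjusted p 0.000766, adjusted p 0.984 in edgeR).

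Por and Fnip2 show the other form of a lower interaction, since LPS lowered both. Por, the reductase that feeds electrons to cytochromes P450, read 711, 788 and 784 CPM at rest and 481, 440 and 494 CPM with LPS in control cells. In succinate cells it read 701, 719 and 651 CPM at rest and 271, 304 and 277 CPM with LPS, an interaction of -0.59 ± 0.14. Fnip2, a partner of folliculin in the nutrient-sensing lysosome pathway, read 1049, 1074 and 1018 CPM and then 443, 371 and 387 CPM in control cells, and 967, 1032 and 972 CPM and then 207, 245 and 272 CPM in succinate cells. Its interaction was -0.65 ± 0.16. In both genes the LPS groups lay apart; the resting groups overlapped in Por and in Fnip2.

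**Figure D3:**
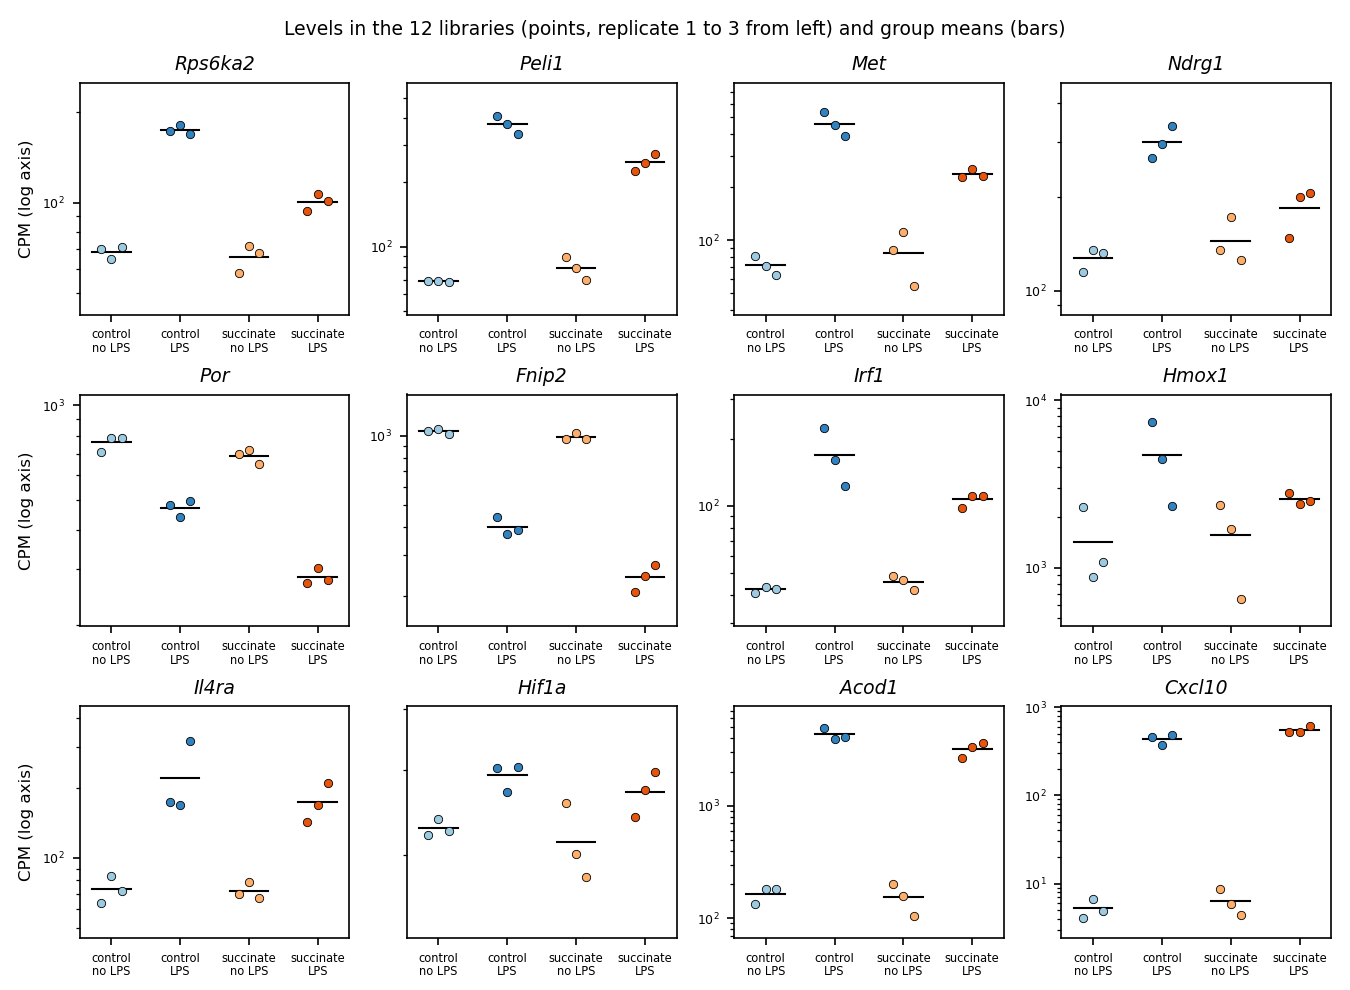
CPM (log axis) of 12 genes in the 12 libraries; points are libraries, coloured by group, and bars are group means. Rps6ka2, Peli1, Met, Por and Fnip2 have succinate LPS libraries below all control LPS libraries, while Il4ra, Hif1a and Hmox1 have overlapping LPS groups.

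Gm10705, a predicted gene with the smallest p of all (7.69e-05), differed in another way. It was at 4.11, 1.44 and 3.43 CPM in resting control, 16.04, 8.05 and 15.99 CPM in resting succinate, 6.52, 7.98 and 11.99 CPM in control LPS and 4.34, 5.13 and 7.48 CPM in succinate LPS libraries. Its resting groups lay apart and its LPS groups overlapped. The interaction was -2.80 ± 0.51, and how reads of overlapping genes were assigned is not given in the sources used here.

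Components of TLR4 signalling had small interactions. Of 30 tested members, 23 were below and 7 above 0, the median was -0.14 against -0.03 over all genes, and 0 were called (0.0% of all genes were). Tlr4 itself had an interaction of 0.14 ± 0.25, Cd14, the co-receptor that hands LPS over, had -0.25 ± 0.22, and Myd88 had -0.14 ± 0.17. At an unadjusted p below 0.05, 2.97% of all tested genes were lower. Ticam1, which encodes TRIF, was the 1 member of the list with a p below 0.05, at -0.34 ± 0.15. Its CPM was 73.0, 77.8 and 78.9 in resting control, 73.4, 79.3 and 84.7 in control LPS, 78.2, 81.3 and 67.1 in resting succinate and 61.6, 65.4 and 58.8 in succinate LPS libraries. Without replicate 3 of the control LPS group the median of the list was -0.07, and with library size alone it was -0.05, with 19 below 0, beside 0.06 over all genes.

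Inflammatory cytokines and chemokines had a median interaction of -0.10 over 34 tested members, 15 above and 19 below 0, although LPS raised 31 of them in the mean over both kinds of mice. An unadjusted p below 0.05 was found for 3 members, all lower: Tnfsf15, Ccl5 and Tnfsf9. At that p 2.97% of all tested genes were lower and 0.942% higher. Ccl5, a chemokine for T cells and monocytes, reached 289, 248 and 202 CPM in control and 141, 160 and 270 CPM in succinate LPS libraries, which overlapped, from 0.405 to 2.35 CPM without LPS, and its interaction was -1.29 ± 0.59. Tnf, the early cytokine of the NF-κB response, reached 497, 492 and 358 CPM in control and 413, 516 and 387 CPM in succinate LPS libraries, from 49.3 to 52.6 CPM and from 32.2 to 50.4 CPM at rest. Its interaction of 0.35 ± 0.25 had a 95% interval of -0.18 to 0.87. Il1b, the inflammasome-dependent cytokine, reached 353, 352 and 1122 CPM in control and 515, 797 and 1109 CPM in succinate LPS libraries, and the spread within the control group left an interval of -1.20 to 1.43 around 0.11. Cxcl10, a chemokine induced by interferon, had 0.07 with an interval of -0.57 to 0.71, and its sign changed in 5 of the 23 alternatives. Without replicate 1 of unstimulated succinate mice the list's median was 0.07, without replicate 1 of the succinate LPS group it was 0.04, and without replicates 1 or 3 of the control LPS group or replicates 2 or 3 of the succinate LPS group, each in turn, it lay between -0.23 and -0.03.

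For cytokine genes that were nearly silent at rest the interaction was poorly determined. Il6 had 0.0579, 0.421 and 0.0624 CPM in resting control libraries and 29.2, 23.8 and 31.6 CPM after LPS, with 0 to 0.705 CPM and 27.1, 33.8 and 54.0 CPM in succinate libraries. Its interval ran from -2.69 to 1.43. Nos2, the inducible nitric oxide synthase, reached 9.88, 9.41 and 28.02 CPM in control and 32.1, 29.3 and 32.1 CPM in succinate LPS libraries, which did not overlap. Its resting levels were at most 0.12 CPM, and the interval of the interaction ran from -2.85 to 4.91. Il10, the anti-inflammatory cytokine, reached 89.5, 115 and 84.2 CPM in control and 58.6, 76.5 and 47.3 CPM in succinate LPS libraries, also without overlap, and its interaction was -0.43 with an interval of -1.79 to 0.94. In Nos2 and Il10 the LPS groups thus lay apart while the interval of the interaction included 0, and the resting levels rest on few counts.

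Interferon-stimulated genes had interactions below 0 in nearly every member. Of 47 tested members 45 were below and 2 above 0 with a median of -0.40, while 54.1% of all tested genes were below 0. An unadjusted edgeR p below 0.05 was found for 10, all lower, beside 2.97% of all tested genes, and 0 were called. The members were read in the same 12 libraries and are not independent. LPS raised 46 of the 47 in the mean, and 44 of those 46 had an interaction below 0. The 10 were Irf1, Ifi204, Ifih1, Cmpk2, Oasl1, Rsad2, Ifi47, Stat2, Irf9 and Mx1. Irf1, a transcription factor of the interferon response, was at 40.9, 43.6 and 42.6 CPM in resting and 223, 160 and 123 CPM in LPS-treated control libraries, and at 48.8, 46.5 and 42.2 CPM and 98.0, 111 and 111 CPM in succinate libraries. The LPS groups did not overlap and the interaction was -0.77 ± 0.23 (unadjusted p 0.00478, adjusted p 1.0 in edgeR). Ifih1, which encodes the RNA sensor MDA5, was at 200, 159 and 156 CPM in control and 77.1, 96.2 and 124 CPM in succinate LPS libraries, with resting levels of 16.7 to 22.9 and 15.98 to 19.97 CPM, and its interaction was -0.68 ± 0.25.

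Canonical members further down the list had the same sign with wider errors: Isg15 had -0.39 ± 0.49 and Ifit1 -0.41 ± 0.40. Irf7 had -0.11 ± 0.36. The mean log2 CPM of the list was 5.64, 5.12 and 5.39 in control LPS libraries and 4.59, 4.63 and 5.24 in succinate LPS libraries, so that replicate 3 of the succinate LPS group lay among the controls. Without that library the median interaction was -0.60. Leaving out any other library gave a median below 0 too, with -0.29 as the weakest. Library size alone gave -0.31 with 44 of 47 below 0. The interaction of the list's mean log2 CPM was -0.44 ± 0.30 (SE), and that of all tested genes was -0.03 ± 0.03. Ifnb1, the interferon gene itself, had 30 counts over all 12 libraries and was not tested.

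Feedback regulators of inflammation, which restrain NF-κB, MAP kinase and cytokine signalling, had a median of -0.28 over 29 members. Of these, 25 were below and 4 above 0, while 54.1% of all tested genes were below 0. LPS raised 23 of the 29 and lowered 1 in the mean over both kinds of mice. Sbno2, a co-repressor induced by interleukin-10, was at 324, 376 and 373 CPM in resting and 594, 580 and 685 CPM in LPS-treated control libraries, and at 354, 392 and 345 CPM and 416, 434 and 472 CPM in succinate libraries. Its LPS groups lay apart, and the interaction was -0.52 ± 0.15 (unadjusted p 0.00442). Socs3, the suppressor of cytokine signalling, reached 354, 409 and 551 CPM in control and 264, 358 and 351 CPM in succinate LPS libraries from 11.98 to 16.2 CPM, with -0.62 ± 0.25. Zfp36, which destabilises cytokine mRNA, had -0.41 ± 0.18. Tnfaip3, encoding the deubiquitinase A20, had -0.28 ± 0.24, and Nfkbia, encoding the NF-κB inhibitor IκBα, -0.08 ± 0.23. The median of the list was -0.14 without replicate 1 of unstimulated succinate mice and -0.16 without replicate 3 of the control LPS group.

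NRF2 target genes, which code for antioxidant, glutathione and iron-handling enzymes, had the lowest median of the lists with at least 10 tested members. All 20 members were below 0, with a median of -0.54, while 54.1% of all tested genes were below 0. However, 0 were called and 1 had an unadjusted p below 0.05, beside 2.97% of all tested genes lower at that p. LPS raised 18 of the 20 in the mean. Hmox1, heme oxygenase 1, had a wide spread: its CPM was 2322, 878 and 1087 in resting control and 7377, 4459 and 2323 in control LPS libraries, and 2355, 1707 and 656 in resting succinate and 2808, 2402 and 2489 in succinate LPS libraries. Within the control LPS group and within the resting succinate group libraries differed by more than 3-fold, the LPS groups overlapped, and the interaction of -1.02 ± 0.63 had a 95% interval of -2.37 to 0.33. Gclc, the catalytic subunit of the first enzyme of glutathione synthesis, was at 431, 301 and 329 CPM, then 1081, 567 and 322 CPM in control libraries, and at 470, 455 and 216 CPM, then 364, 338 and 280 CPM in succinate libraries, with -1.11 ± 0.49 (unadjusted p 0.0396). Nqo1 had -0.88 ± 0.58, Gclm -0.88 ± 0.54 and Txnrd1 -0.73 ± 0.36, with LPS groups led by the same library, replicate 1 of the control LPS group.

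The members shared this ranking of libraries. The mean log2 CPM of the list was 9.60, 9.13 and 8.79 in the control LPS libraries, 8.78, 8.68 and 8.63 in the succinate LPS libraries, 8.33, 7.81 and 7.97 in resting control libraries and 8.39, 8.17 and 7.49 in resting succinate libraries. Every control LPS library was therefore above every succinate LPS library, at the closest by 8.79 against 8.78, while the resting groups overlapped. The interaction of these means was -0.45 ± 0.39. Without replicate 1 of the control LPS group the median of the list was -0.26, and over the other libraries left out it reached -0.75. A term for the division of libraries by S100a4 and the other 4 genes gave -0.67.

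**Figure D4:**
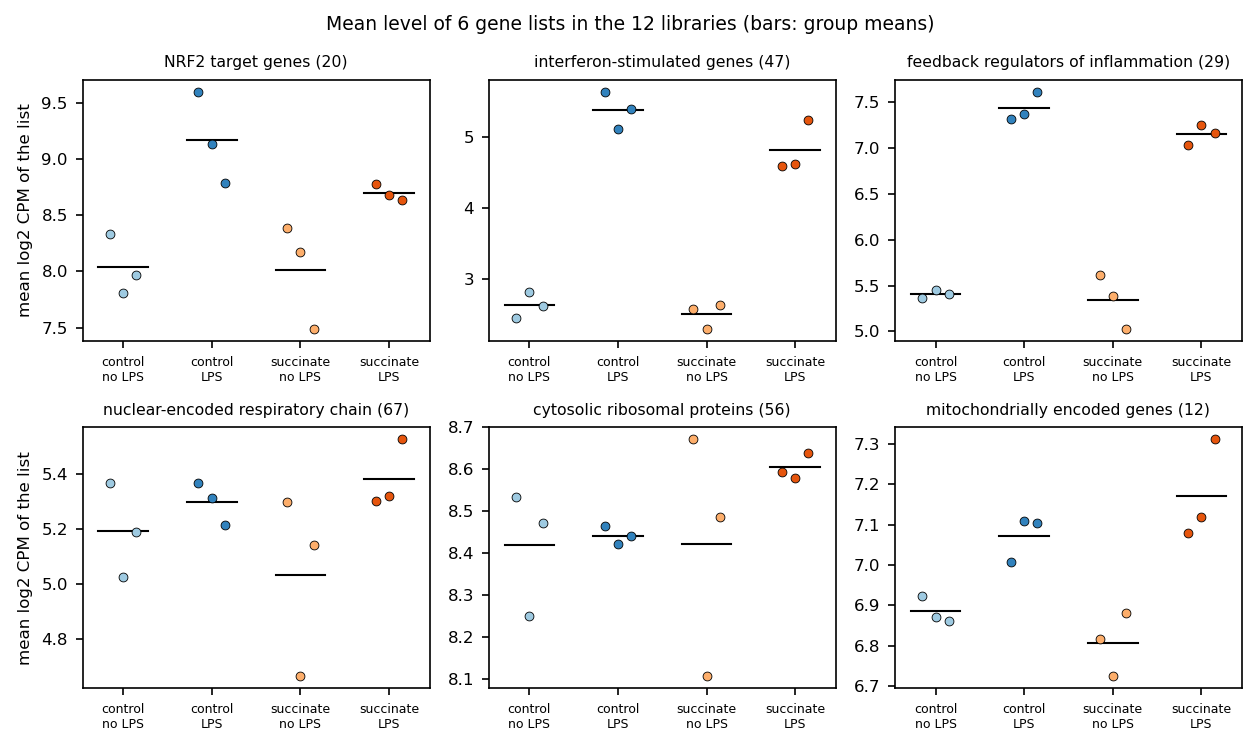
Mean log2 CPM of 6 gene lists (number of genes in brackets) in the 12 libraries, with group means as bars. In the NRF2 list the control LPS libraries run from 8.79 to 9.60 and the succinate LPS libraries from 8.63 to 8.78; the respiratory chain list falls to 4.66 in replicate 2 of unstimulated succinate mice.

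The axis named in the study's title, the interleukin-4 receptor α chain and HIF-1α, showed no called interaction. Il4ra (ENSMUSG00000030748, chromosome 7, 125552120 to 125579474) was at 63.7, 84.0 and 72.0 CPM in resting and 174, 169 and 321 CPM in LPS-treated control libraries. In succinate libraries it was at 69.9, 78.7 and 67.4 CPM and 144, 169 and 210 CPM. Both pairs of groups overlapped, replicate 3 of the control LPS group stood highest, and the interaction was -0.32 ± 0.30 with a 95% interval of -0.97 to 0.33. Of 12 tested genes of interleukin-4 receptor signalling, 10 were below 0, with a median of -0.24, which was -0.16 without replicate 1 of unstimulated control mice and -0.15 without replicate 3 of unstimulated succinate mice. Jak2, a kinase shared by many cytokine receptors, had -0.40 ± 0.17, and Stat6, the transcription factor that interleukin-4 activates, had 0.03 ± 0.14.

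Interleukin-4 target genes divided, with 9 above and 13 below 0 and a median of -0.04 that changed sign in 10 of the 23 alternatives. Mgl2, a C-type lectin of alternatively activated macrophages, was the member with the smallest p, at 0.98 ± 0.30 (unadjusted p 0.00488). It was at 13.2, 12.8 and 11.7 CPM in resting and 7.87, 10.8 and 14.9 CPM in LPS-treated control libraries, and at 10.3, 9.22 and 13.8 CPM and 18.6, 18.7 and 21.3 CPM in succinate libraries, so that its LPS groups lay apart with succinate above. Klf4, a transcription factor of monocyte differentiation that LPS lowered, had -0.55 ± 0.20. Arg1, a classical target, had 60 counts over the 12 libraries and was not tested.

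Hif1a (ENSMUSG00000021109, chromosome 12, 73901375 to 73947530) was at 220, 237 and 224 CPM in resting and 303, 269 and 304 CPM in LPS-treated control libraries, and at 257, 201 and 180 CPM and 240, 272 and 296 CPM in succinate libraries. All groups of the same stimulus overlapped. The interaction was -0.02 ± 0.18 with a 95% interval of -0.41 to 0.37, and its sign changed in 9 of the 23 alternatives. Among 34 tested genes of the HIF-1 pathway 13 were above and 21 below 0, with a median of -0.03, equal to that of all genes at this precision. With library size alone 10 of the 34 were below 0 and the median was 0.06, and after GC and length trends were removed 16 were below. The median was 0.01 without replicate 3 of the control LPS group, -0.09 without replicate 3 of unstimulated succinate mice or of the succinate LPS group, and between -0.015 and -0.001 without replicate 3 of unstimulated control mice, replicate 1 of unstimulated succinate mice or replicate 1 of the succinate LPS group. Its members were not alike: Ndrg1, a hypoxia-inducible gene, had -0.88 ± 0.21 (unadjusted p 0.000993) and Slc2a1, the glucose transporter GLUT1, -0.60 ± 0.26, while Ldha had -0.04 ± 0.19 and Pgk1 -0.02 ± 0.13. Ndrg1 read 115, 135 and 132 CPM, then 266, 296 and 338 CPM in control libraries, and 135, 173 and 125 CPM, then 148, 200 and 206 CPM in succinate libraries, with LPS groups apart.

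Genes of energy metabolism had small interactions of either sign. Glycolysis and the pentose phosphate pathway had 20 of 30 members below 0 and a median of -0.08 (-0.05 without replicate 1 of unstimulated succinate mice and -0.015 without replicate 3 of the control LPS group), but 14 of 30 and 0.01 with library size alone, and Pfkp, a phosphofructokinase, had -0.43 ± 0.14 (unadjusted p 0.0083). TCA cycle, succinate and itaconate genes had 20 of 35 above 0 and a median of 0.02, which is -0.03 without replicate 2 of unstimulated succinate mice or without replicate 3 of the succinate LPS group and -0.01 without replicate 1 of the control LPS group. Sdha, a subunit of succinate dehydrogenase, had 0.10 ± 0.17 with an interval of -0.25 to 0.46. Acod1, which makes itaconate, an inhibitor of that enzyme, reached 4887, 3907 and 4112 CPM in control and 2676, 3308 and 3613 CPM in succinate LPS libraries, from 134 to 181 and from 106 to 200 CPM. Those LPS groups lay apart, and the interaction was -0.34 with an interval of -0.94 to 0.27. Sucnr1, the succinate receptor, had 2 counts over all 12 libraries and was not tested.

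Respiratory chain and ribosomal genes leaned the other way. Of 67 nuclear-encoded respiratory chain genes 63 were above and 4 below 0, while 45.9% of all tested genes were above 0. The median was 0.21, and 0 members had an unadjusted p below 0.05. Ndufs4, a subunit of complex I, had 0.42 ± 0.27, and Ndufa9 0.37 ± 0.20. Of 12 mitochondrially encoded genes 11 were above 0 (median 0.21), mt-Co1 at 0.22 ± 0.16. Of 56 cytosolic ribosomal protein genes 54 were above 0 (median 0.16), Rpl14 at 0.30 ± 0.18, whereas Rpl24, 1 of the genes that divide the libraries, had -2.08 ± 1.11.

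These shifts were small beside the spread of the libraries. The mean log2 CPM of the respiratory chain list was 5.37, 5.03 and 5.19 in resting control, 5.37, 5.31 and 5.21 in control LPS, 5.30, 4.66 and 5.14 in resting succinate and 5.30, 5.32 and 5.53 in succinate LPS libraries. The lowest was replicate 2 of unstimulated succinate mice, and without it the median interaction was 0.07 for the respiratory chain and 0.02 for ribosomal proteins. Other libraries left out also moved the respiratory chain median by more than 1.5 times: 0.37 without replicate 1 of unstimulated succinate mice, 0.13 without replicate 1 of unstimulated control mice and 0.14 without replicate 3 of the succinate LPS group. For ribosomal proteins it was 0.32 without replicate 1 of unstimulated succinate mice and 0.27 without replicate 2 of unstimulated control mice, and for mitochondrially encoded genes 0.11 without replicate 3 of the succinate LPS group. In the 7 libraries with low S100a4 and Rpl24 alone, the medians were 0.09, 0.04 and 0.25 for the respiratory chain, ribosomal and mitochondrially encoded genes.

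The share of all counts from mitochondrially encoded genes was 0.96% ± 0.05 in resting control, 1.03% ± 0.042 in control LPS, 0.962% ± 0.059 in resting succinate and 1.244% ± 0.022 in succinate LPS libraries (SD, n = 3). The interaction of these shares was 0.212 percentage points. A two-sided permutation test that exchanged succinate and control labels within each stimulus gave p = 0.06 (400 arrangements, smallest possible p 0.005). After adjustment over the pair of shares tested, the permutation p was 0.12. Such a p is exact where succinate has no effect under either stimulus, and only approximate for the absence of an interaction alone. For ribosomal protein genes the shares were 3.418% ± 0.362, 3.244% ± 0.056, 3.52% ± 0.591 and 3.979% ± 0.106. The interaction was 0.634 points, and the p of the same permutation test was 0.21 (0.21 adjusted). Neither share passed the test.

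Lysosomal genes and the folliculin axis, which LPS lowered in 24 of 29 members, had 23 of 29 interactions below 0 and a median of -0.23. Besides Fnip2, Npc1, the cholesterol exporter of the lysosome, had -0.63 ± 0.18 (unadjusted p 0.00406) and Flcn, folliculin, -0.43 ± 0.17. Npc1 was at 855, 1011 and 930 CPM, then 573, 443 and 470 CPM in control libraries, and at 920, 1071 and 803 CPM, then 309, 342 and 310 CPM in succinate libraries. The cathepsins differed in sign, with Ctsb at -0.40 ± 0.22 and Ctsl at 0.19 ± 0.18. Without replicate 1 of unstimulated succinate mice, of the control LPS group or of the succinate LPS group, each in turn, the median was about -0.13.

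Among surface receptors values lay on both sides of 0. Cx3cr1, the fractalkine receptor and a marker of Ly6C-low monocytes, was lowered by LPS, with 31.6, 68.0 and 62.0 CPM in resting and 12.7, 11.1 and 17.0 CPM in LPS-treated control libraries. In succinate libraries it was at 33.8, 33.3 and 57.4 CPM and 16.3, 24.5 and 40.5 CPM. Both pairs of groups overlapped, and the interaction was 1.37 ± 0.47 (unadjusted p 0.0109). The 13 tested markers of Ly6C-low monocytes as a list had 6 above and 7 below 0 and a median of -0.07. That median changed sign in 8 of the 23 alternatives and ran from -0.28 without replicate 2 of unstimulated control mice to 0.10 without replicate 3 of unstimulated succinate mice. Their levels had a sum of 1545 to 1768 and 1558 to 1604 CPM in resting and 1876 to 2402 and 1680 to 1900 CPM in LPS-treated control and succinate libraries. The 17 markers of Ly6C-high monocytes had 10 above and 7 below 0 and a median of 0.05. With 1 library left out it ran from -0.20 (replicate 3 of the succinate LPS group) to 0.13 (replicate 3 of unstimulated succinate mice). Itgb7, the integrin β7 chain of gut homing, was lowered by LPS from 465, 558 and 577 CPM to 216, 173 and 221 CPM in control libraries and from 463, 545 and 552 CPM to 121, 122 and 127 CPM in succinate libraries, with LPS groups apart and an interaction of -0.68 ± 0.17. P2rx7, the ATP receptor upstream of the inflammasome, was at 436, 351 and 411 CPM, then 207, 182 and 122 CPM in control libraries, and at 408, 331 and 290 CPM, then 73.7, 98.4 and 77.9 CPM in succinate libraries, with -0.81 ± 0.26. Antigen presentation and co-stimulation genes had 17 of 18 below 0 and a median of -0.15, with the smallest p at Cd86, a co-stimulatory ligand for T cells (-0.59 ± 0.23), and the lowest value at Ciita, the activator of MHC class II genes (-1.35 ± 0.62). With library size alone 15 were below 0 and the median was -0.07, and the median ranged from -0.32 without replicate 2 of unstimulated control mice to -0.07 without replicate 1 of the succinate LPS group.

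In the remaining pathway lists no member was called either. Immediate early and heat shock genes split 12 above and 13 below 0, with Egr1, an early transcription factor that LPS lowered, at 1.14 ± 0.41. MAP kinase cascade genes had 22 of 26 below 0 (median -0.19, or -0.11 without replicate 3 of the control LPS group), cholesterol synthesis and export genes 19 of 24 (median -0.21, and -0.42 to -0.07 with 1 library left out), and genes of prostaglandin and leukotriene synthesis 11 of 15 (median -0.19, and -0.29 to -0.02). Ptgs2, cyclooxygenase 2, had -0.51 with an interval of -1.25 to 0.24. Cell cycle genes had 28 of 34 above 0 and a median of 0.14, which was 0.00 without replicate 1 of the control LPS group and 0.08 without replicate 1 of unstimulated control mice. Of the other lists, inflammasome and pyroptosis genes had 10 of 17 below 0, chemokine receptors and adhesion molecules 15 of 21, phagocyte oxidase and Fc receptor genes 9 of 17, unfolded protein and integrated stress response genes 15 of 20, and BCL2 family genes 10 of 17. With library size alone those counts were 7, 14, 8, 10 and 9, and the medians of the unfolded protein list and the inflammasome list were 0.01 and 0.07. Every list median lay higher under that scaling, as did the median of all genes. It was -0.02 for cytokines and chemokines, -0.16 for interleukin-4 receptor signalling, -0.14 for the lysosome and folliculin axis, -0.12 for cholesterol genes, -0.10 for MAP kinase and for prostaglandin genes, and 0.04 for immediate early genes.

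**Figure D5:**
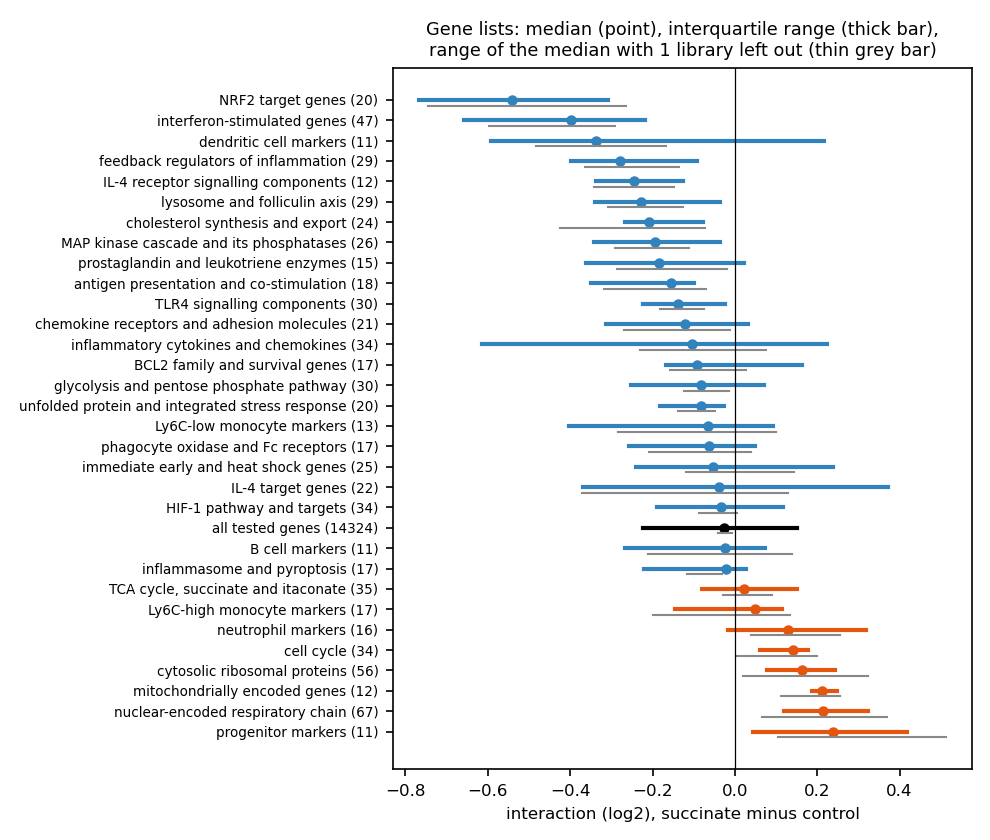
Interaction (x axis, log2) of the lists with at least 10 tested members: median (point), interquartile range over its genes (thick bar) and range of the median when 1 library was left out (thin grey bar). NRF2 targets (-0.54) and interferon-stimulated genes (-0.40) have the lowest medians and the respiratory chain (0.21) is among the highest; the median of all tested genes is -0.03.

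Markers of other cells were read for the same contrast. Neutrophil markers had 11 of 16 above 0 (median 0.13), progenitor markers 8 of 11 (median 0.24) and dendritic cell markers 3 of 11 (median -0.34), and none of their members had an unadjusted p below 0.05. With 1 library left out these medians ran from 0.04 (without replicate 1 of unstimulated control mice) to 0.25 (replicate 2 of the control LPS group), from 0.10 (replicate 1 of unstimulated succinate mice) to 0.51 (replicate 3 of the control LPS group), and from -0.48 (replicate 3 of the succinate LPS group) to -0.17 (replicate 1 of unstimulated control mice). Erythroid markers had 5 of 6 tested members above 0 and the highest median of any list with more than 1 tested member, 0.82, which ran from -0.29 without replicate 1 of unstimulated control mice to 1.69 without replicate 1 of unstimulated succinate mice. Their summed level was 7.1 to 40.4 and 9.7 to 36.8 CPM in resting and 26.5 to 55.3 and 29.2 to 88.3 CPM in LPS-treated control and succinate libraries. Eosinophil, basophil and mast cell markers had 4 of 6 above 0 and a median of 0.41, which was -0.09 without replicate 2 of the succinate LPS group. T and NK cell markers had 4 tested of 12, 2 above and 2 below 0 with a median of -0.12, and Nkg7, a cytotoxic granule gene, was the highest of them at 0.66 ± 0.25. B cell markers summed to 178 to 194 and 224 to 288 CPM in resting and 126 to 219 and 169 to 263 CPM in LPS-treated control and succinate libraries. Their interactions were above 0 in 5 and below in 6, and the median of -0.02 changed sign in 12 of the 23 alternatives. Macrophage markers had 6 tested of 11, 3 above and 3 below 0, with a median of -0.13. With 1 library left out that median ran from -0.34 (replicate 2 of the control LPS group) to 0.19 (replicate 3 of unstimulated succinate mice). In bulk samples fewer cells of a type and less RNA per cell cannot be told apart, and the part of these cells in the interaction values above was not tested.

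How large an interaction the intervals leave room for depended on the level of the gene. The median standard error was 0.269 over all tested genes and 0.198 over the 8379 genes with at least 10 CPM. The 95% interval lay wholly within a 2-fold difference (±1 log2) for 7679 of those 8379 genes (91.6%). It did so for 1100 of the 5945 genes with a mean below 10 CPM (18.5%). Among the 8379, 26 had an estimate beyond 1 in size, against 812 of the 5945. A median interval of ±0.423 in genes with at least 10 CPM is as wide as or wider than most list medians above, so shifts of that size were not detectable gene by gene at this depth and spread.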

How the data were processed

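RNA-seq was measured in 12 libraries of sorted bone marrow monocytes. The authors deposited raw read counts of 54532 genes; Trim Galore and mm10 are named per the submitters' processing notes, while the sources used here name no aligner, counter, annotation or strand handling. Gene positions, lengths and GC contents came from GENCODE M21 (GRCm38). Where a symbol had several identifiers, the one with the most counts was used.

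Counts were filtered with filterByExpr (14324 genes kept, 14239 with a count removed, with 99.87% or more of each library's counts kept), scaled by TMM and fitted with edgeR 4.0.16 (R 4.3.3), 1 mean per group over all 12 libraries, with 0.05 as the limit on adjusted p. Standard errors are the fold divided by the root of the quasi-likelihood F. Intervals cover 95%. CPM values are TMM-scaled. The named genes were those called (none), 3 members per list, those of smallest p, plus 18 genes of interest; Hmox1, Nqo1, Gclm, Txnrd1, Gapdh, Gm10705, the 20 genes at 5 CPM or more and other list members cited as examples were chosen after their values were seen. The members and lists were chosen with earlier results of these data known. Promoters of called genes were to be read, but none was called. The scripts were tested on simulated data. Alternatives were other filters, scalings and tools (DESeq2 1.42.0, limma 3.58.1), the replicate block, the library division, GC and length trends, and each library left out. A member of 1 list is not reported here.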

Additional observations from a re-analysis of the deposited data

How the results depend on the processing

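The count of genes called for the interaction was 0 higher and 0 lower with a stricter filter, RLE scaling, library size alone, limma-voom, a term for the library division, the 7 low libraries alone, GC and length trends removed, and each of the 12 libraries left out (0 to 0 in each direction). It was 22 higher and 49 lower without a filter, 3 lower with DESeq2, and 1 lower (Gm10705, adjusted p 0.0285) with the replicate block and GC and length trends removed together; the cause was not tested, except that the unfiltered fit used no spread of each gene's own. With the replicate block alone 0 genes were called higher and 0 lower, and 186 higher and 531 lower genes had an unadjusted p below 0.05. Replicate numbers were not taken as pairs, since the labels do not say that they mark a shared animal or day. Of same-number pairs, 7 of 18 had deviations correlated above 0.1 (median 0.094, range -0.129 to 0.377). Of pairs with different numbers 5 of 36 did (median -0.052), and 6 of 12 libraries correlated best with their own number, a hint from the data and not the design. At an unadjusted p below 0.05 there were 87 higher genes with the stricter filter, 237 higher and 620 lower with the library division, 255 and 481 in the low libraries alone, and 441 and 763 without a filter. Of 3237 values of named genes under the alternatives, 3141 stayed within 1 standard error, 71 moved further and 25 came to pass the threshold. Of 36 list medians, 18 kept their sign in every alternative.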

Other observations

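Gapdh, often used as a reference gene, was at 69.6, 11.5 and 10.4 CPM in resting control, 12.4, 14.0 and 109 CPM in control LPS, 15.1, 66.5 and 11.6 CPM in resting succinate and 17.3, 15.2 and 13.4 CPM in succinate LPS libraries. The 3 high libraries came from 3 different groups, and its interaction over all libraries was -1.58 ± 1.22. In the 7 libraries with low S100a4 and Rpl24 the interaction became 2.42. There, replicate 1 alone stood for each unstimulated group, at 69.6 CPM in control and 15.1 CPM in succinate mice. S100a4, a calcium-binding protein, was at 7.47 to 17.0 CPM in the 5 high libraries and at 0.789 to 2.83 CPM in the other 7. Both genes have related copies, and how their reads were assigned is not given in the sources used here.

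Ampd3, an enzyme of adenine nucleotide turnover, was chosen after its values were seen. It reached 190, 134 and 88.3 CPM in control and 75.6, 77.7 and 65.4 CPM in succinate LPS libraries, from 20.7 to 28.9 and 20.5 to 29.0 CPM at rest. The LPS groups lay apart and the interaction was -1.04 ± 0.32 (unadjusted p 0.00569, adjusted p 1.0 in edgeR).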
